A study of Homo sapiens with 6 samples.

Results

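FOS, FOSB, FOSL1, FOSL2, JUN, JUNB, JUND, EGR1, MAFF and MYC encode AP-1 subunits and other immediate early or growth-related transcription factors. They were taken from the deposited gene table by exact gene symbol, and all 10 of them were found among its 16116 genes. RNA-seq had been made from HK-2 cells, an immortalised human proximal tubule epithelial line, in 3 wild-type (WT) and 3 knockout (KO) libraries. The KO cells carry the genotype label FAM134B-KO. FAM134B is the protein of RETREG1, a receptor that delivers endoplasmic reticulum to autophagosomes, whereas the design text of the series names TAX1BP1 instead. No treatment or time is given, and nothing in the labels says whether the KO cells are 1 clone, how the gene was disrupted, or whether libraries of a group came from separate cultures, so the p-values measure only the spread between these libraries.

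AP-1 is a dimer of basic leucine zipper (bZIP) proteins. JUN proteins pair with each other or with a FOS protein, whereas FOS proteins need a JUN partner to bind DNA well. FOS, FOSB, JUNB and EGR1 are immediate early genes, which serum, growth factors, stress and cell injury switch on within minutes through MAP kinases and without new protein synthesis. FOSL1 and FOSL2, the Fra proteins, follow later and last longer. In kidney tubules, genes of this class are known to rise early after injury.

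RETREG1 was low already in WT, with 72, 80 and 73 reads, against 33, 27 and 28 in KO. Its level was 4.41 ± 0.227 CPM in WT and 1.75 ± 0.194 CPM in KO. RETREG1 was thus at 39.7% of its WT level in KO (log2 fold change -1.33, adjusted p = 5.31e-07 in edgeR's quasi-likelihood test). TAX1BP1 stood at 156 ± 6.30 and 151 ± 9.46 CPM (log2 fold change -0.05, adjusted p = 0.533 in edgeR). Libraries held 16796964 to 17127468 estimated reads. Of 12702 tested genes, 18.7% were called higher and 18.1% lower in KO, and the groups did not overlap for 46.3%. Of 21 proximal tubule and epithelial markers 11 were tested, of which 3 were called higher (PAX8, LHX1 and EPCAM) and 4 lower (KRT8, KRT18, KRT19 and CDH2), and they summed to 1892 to 2022 CPM (counts scaled to library size with TMM factors) in WT and 1787 to 1944 CPM in KO. KRT8 fell from 413 ± 18.8 to 262 ± 12.3 CPM, CDH2 from 146 ± 7.12 to 94.5 ± 2.40 CPM and KRT19 from 3.13 ± 0.772 to 0.0397 ± 0.0343 CPM, while PAX8 rose from 458 ± 25.4 to 561 ± 39.5 CPM. LRP2, CUBN and AQP1, which define the native proximal tubule, were below 1 CPM in both groups, as was CDH1. The part of these moves in the results on the AP-1 genes was not tested. Of other cell types the culture could hold, endothelial markers summed to 0.293 to 0.758 CPM in WT and 0.476 to 0.891 CPM in KO, with 4 of 7 not listed in the table. Leukocyte markers summed to 21.2 to 25.7 and 23.9 to 24.98 CPM, nearly all from CD68, with PTPRC at or near 0. Fibroblast markers summed to 32.0 to 37.9 and 21.8 to 22.8 CPM, mostly from COL1A1 and RGS5, with PDGFRA and COL3A1 at or near 0.

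The stretches just before the start sites are shown first for the 4 members with the largest rises (FOS, FOSB, JUN and EGR1) and for FOSL2, the member that fell, because CRE, CArG and AP-1-like elements are known from the promoters of this gene class. The serum response element of FOS, which holds its CArG box, is known to lie further upstream, outside the bases shown and searched. Each is the 200 bases before the RefSeq start, from GRCh38.p14, read 5′ to 3′ on the gene's strand. The capitals mark matches, on either strand, to the cAMP response element (CRE, TGACGTCA) or its core TGACGT, to the AP-1-like motifs known from the JUN promoter (TGACATCA and TTACCTCA), to the CArG box bound by serum response factor, or to the EGR motif GCGNGGGCG.
FOS, chr14:75278628-75278827, plus strand: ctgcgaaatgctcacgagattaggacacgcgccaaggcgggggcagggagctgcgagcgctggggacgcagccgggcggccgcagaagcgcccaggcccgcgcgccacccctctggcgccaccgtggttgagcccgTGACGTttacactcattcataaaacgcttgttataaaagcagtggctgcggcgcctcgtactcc
FOSB, chr19:45467796-45467995, plus strand: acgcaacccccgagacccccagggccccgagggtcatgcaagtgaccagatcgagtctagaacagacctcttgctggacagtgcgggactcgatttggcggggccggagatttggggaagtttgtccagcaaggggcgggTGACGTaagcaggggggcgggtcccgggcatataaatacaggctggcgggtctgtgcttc
JUN, chr1:58784048-58784247, minus strand: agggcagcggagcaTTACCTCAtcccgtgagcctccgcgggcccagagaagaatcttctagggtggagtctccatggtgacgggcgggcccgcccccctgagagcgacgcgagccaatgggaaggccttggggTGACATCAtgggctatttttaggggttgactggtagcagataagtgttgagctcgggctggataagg
EGR1, chr5:138465279-138465478, plus strand: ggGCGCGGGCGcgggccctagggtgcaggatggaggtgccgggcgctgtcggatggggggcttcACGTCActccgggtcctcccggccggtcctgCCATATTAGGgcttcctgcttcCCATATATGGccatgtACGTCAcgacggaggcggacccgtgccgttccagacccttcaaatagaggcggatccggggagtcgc
FOSL2, chr2:28392658-28392857, plus strand: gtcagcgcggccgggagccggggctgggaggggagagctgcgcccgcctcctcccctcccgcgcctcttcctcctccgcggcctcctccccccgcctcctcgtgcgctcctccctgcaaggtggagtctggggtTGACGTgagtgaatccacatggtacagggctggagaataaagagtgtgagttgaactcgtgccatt

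The RefSeq promoter table held 8 of the 10 members, and MAFF had 2 starts. FOSL1 and MYC were not in it and were not searched. The CRE core TGACGT began 64 bases before the start of FOS, 60 before that of FOSB and 66 before that of FOSL2, so it lay at a like distance in members that rose and in the one that fell. It also matched before EGR1, JUND and the first start of MAFF, and in MAFF and at 1 of the places in JUND it was part of a full TGACGTCA, whereas JUND had a further core alone, starting 87 bases before the start. Over all 35116 promoters of the table, 7.10% held TGACGT and 1.65% held TGACGTCA in the same 250 bases. EGR1 had CArG boxes starting 105 and 83 bases before its start, an element found in 1.16% of promoters. JUN had TGACATCA 67 bases and TTACCTCA 186 bases before its start, found in 2.37% and 0.644% of promoters. The EGR motif in front of EGR1 itself occurs in 8.41% of promoters. The E-box CACGTG, a motif of MYC and related factors, matched only before MAFF among the members searched (6.34% of promoters). None of the 8 members searched had the consensus AP-1 motif TGANTCA in this window (6.57% of promoters), and JUNB had no match to any motif searched. A match is a string of letters and not evidence of binding.

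**Figure D1:**
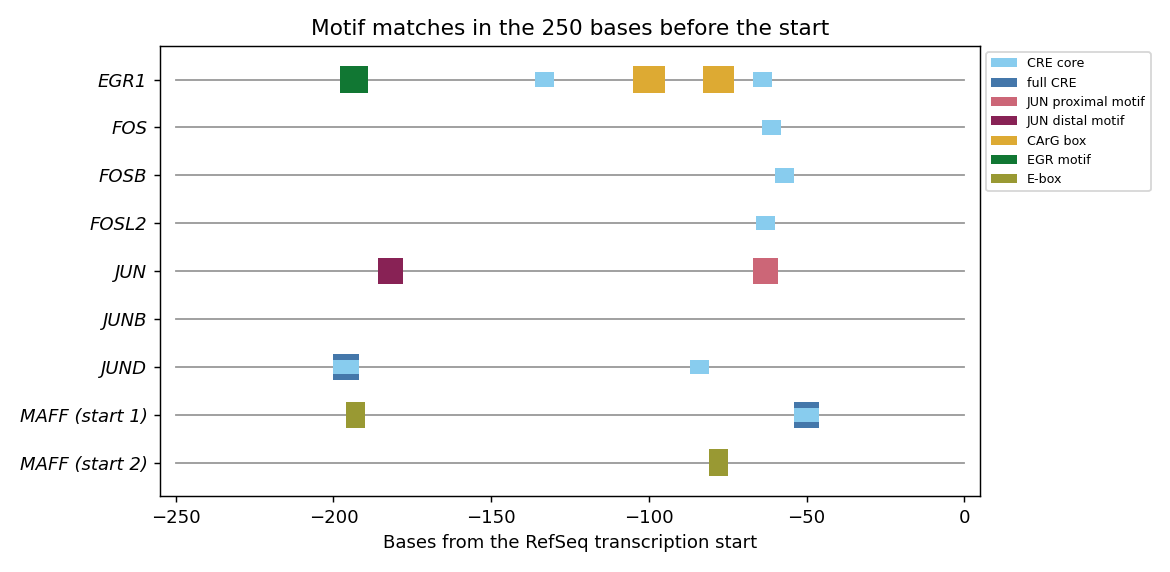
Matches to the 7 motifs found among the 8 searched (coloured boxes, either strand) in the 250 bases before each RefSeq start, against distance from the start in bases. The CRE core lies 60 to 66 bases before the start of FOS, FOSB and FOSL2, and JUNB shows no match.

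KO cells held more RNA of 7 of the 10 members and less of 1. FOS, FOSB, JUN, EGR1, MAFF, JUNB and JUND were called higher, FOSL2 was called lower, and FOSL1 and MYC were not called, at an adjusted p under 0.05 in edgeR over all 12702 tested genes. Over all genes 18.7% were called higher, 18.1% lower and 36.8% in either direction. The median log2 fold change was 0.35 over the members and 0.00 over all tested genes. All 10 members passed the filter on low counts. The changes were mostly modest, since 6 of the 8 called members changed by less than 1.5-fold and FOS alone changed by at least 2-fold, which 4.83% of all genes did in either direction. For 8 members, the called ones, the KO and WT libraries did not overlap, against 46.3% of all genes. In a bulk sample, more cells expressing a gene and more RNA per cell cannot be told apart.

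**Figure D2:**
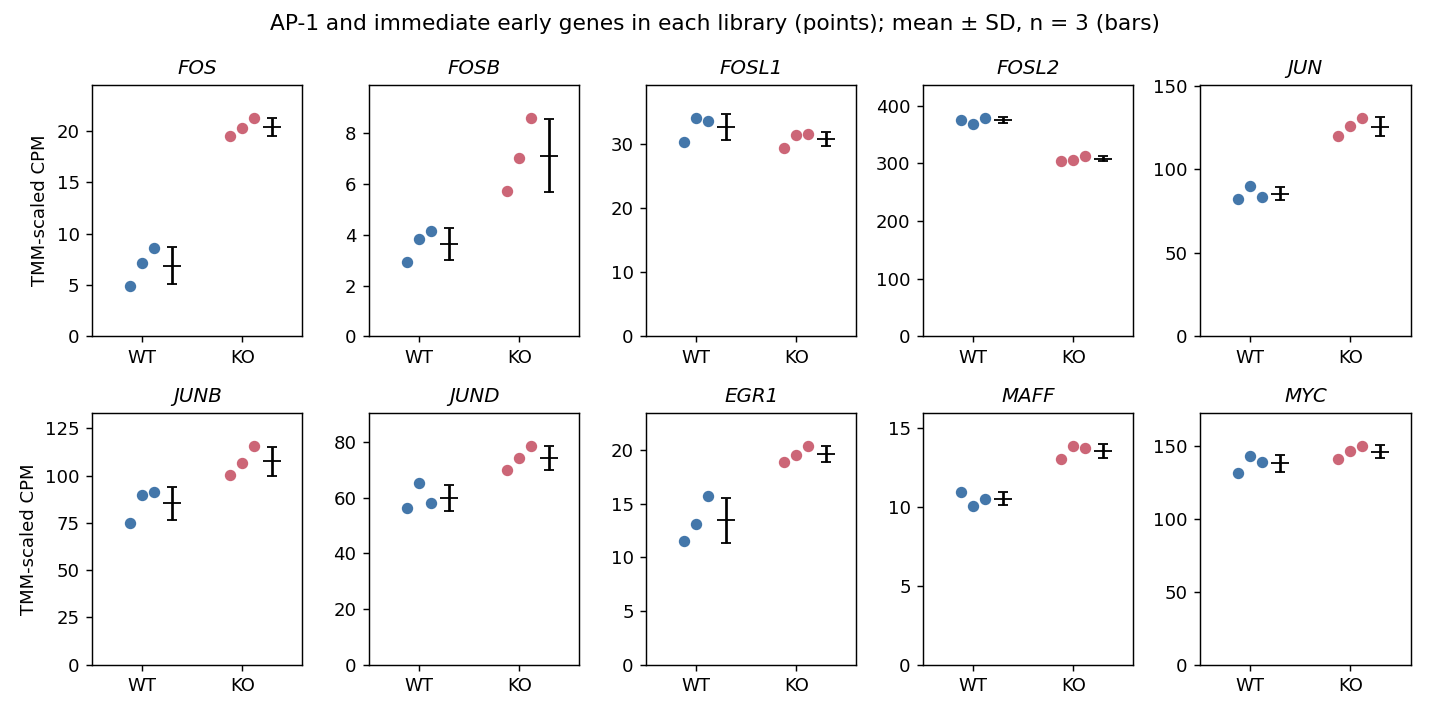
TMM-scaled CPM (vertical axes, starting at 0) of the 10 members in each WT (blue) and KO (red) library, with the mean ± SD of 3 libraries as black bars. The groups are apart for every member but FOSL1 and MYC, and FOSL2 is the one member called lower in KO.

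FOS, the prototype immediate early gene and FOS family founder, changed most. It had 84, 123 and 144 reads in WT replicates 1 to 3 and 327, 341 and 358 in KO replicates 1 to 3. Every KO library thus lay well above the highest WT library. The level rose from 6.88 ± 1.83 to 20.3 ± 0.888 CPM (SD, n = 3 each), a fold of 2.96 (log2 fold change 1.56, SE 0.119, 95% interval 1.32 to 1.81, adjusted p = 3.96e-11 in edgeR). Only 135 of the 12702 genes (1.06%) were called higher with a log2 fold change at or above that of FOS. The WT libraries differed among themselves by 1.74-fold and the KO libraries by 1.09-fold. Without WT replicate 1, its lowest library, the log2 fold change of FOS was 1.37.

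FOSB, a close relative whose short splice form ΔFOSB accumulates under repeated stimulation in the brain of rodents, was the least abundant member. It had 50, 66 and 70 reads in WT and 96, 118 and 145 in KO. The lowest KO library exceeded the highest WT library, and the KO libraries were the more spread. FOSB rose from 3.65 ± 0.637 to 7.12 ± 1.45 CPM (edgeR log2 fold change 0.96 with SE 0.157, adjusted p = 1.41e-05). Its reads were split over 3 RefSeq models. NM_006732, the full-length form, had 44.13, 54.21 and 70.00 estimated reads in WT and 59.61, 48.21 and 128.36 in KO. NM_001114171, the model of ΔFOSB, was listed at 0 in all WT libraries and at 28.54, 33.11 and 0.01 in KO. The ΔFOSB model was too low to be tested and KO replicate 3 all but lacked it. Models that overlap and share so few reads are hard to separate.

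FOSL1 encodes Fra-1, the FOS protein of RAS and MAP kinase signalling in many epithelial and carcinoma lines. Its reads numbered 518, 586 and 566 in WT and 495, 528 and 531 in KO, and the ranges overlapped. The means were 32.7 ± 2.03 and 30.8 ± 1.14 CPM, and the log2 fold change of -0.09 missed the threshold (95% interval -0.23 to 0.06, adjusted p = 0.361 in edgeR).

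FOSL2 encodes Fra-2 and had the most reads of the 10 genes. The 3 WT libraries held 6392, 6325 and 6376 reads and the KO libraries 5098, 5150 and 5263. Within each group the libraries were nearly equal, differing by 1.03-fold. The level fell from 374 ± 5.19 to 308 ± 4.50 CPM (edgeR log2 fold change -0.28 with SE 0.0467, adjusted p = 1.77e-05), to 82.2% of WT. Of the 4 RefSeq models of FOSL2, NM_005253 took 97.2% of the reads in WT and 98.0% in KO.

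JUN, the partner that FOS proteins use and which also acts as a homodimer, had 1406, 1541 and 1410 reads in WT. In KO it had 2010, 2119 and 2205 reads, with no overlap. Mean JUN expression rose from 85.4 ± 3.90 to 125.6 ± 5.60 CPM, a fold of 1.47 (log2 fold change 0.56, SE 0.0552, adjusted p = 3.53e-09 in edgeR). JUN lies on chromosome 1, where the median log2 fold change was 0.12 over 1287 tested genes and 0.13 over the 24 tested genes nearest to JUN in gene order. The part of this shift in the rise of JUN was not tested. The neighbours of the other members had medians between -0.08 and 0.08.

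JUNB, a weaker activator that can also oppose JUN, had 1280, 1536 and 1536 reads in WT and 1682, 1793 and 1947 in KO. WT replicate 1 was low, and the other WT libraries came closer to the KO range without reaching it. JUNB rose from 85.3 ± 8.86 to 107.5 ± 7.73 CPM (edgeR log2 fold change 0.33 with SE 0.0663, adjusted p = 0.000207). HOOK2, which overlaps JUNB in the RefSeq annotation, rose as well, from 24.2 ± 0.919 to 31.4 ± 1.88 CPM (log2 fold change 0.37, adjusted p = 0.000163 in edgeR). With the strand setting not given in the sources used here, reads of the overlap cannot be told apart.

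JUND, the JUN gene expressed most constantly in resting cells, had 959, 1122 and 976 reads in WT and 1174, 1251 and 1323 in KO. WT replicate 2 came closest to the KO libraries without reaching them. Expression of JUND rose from 59.9 ± 4.84 to 74.3 ± 4.30 CPM (edgeR log2 fold change 0.31 with SE 0.0637, adjusted p = 0.00028). The intervals of JUNB (0.20 to 0.47) and JUND (0.18 to 0.44) overlapped widely, and the difference between them was not tested.

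EGR1, a zinc finger factor induced through CArG boxes together with FOS, had 196, 225 and 264 reads in WT and 317, 329 and 343 in KO. Like FOS it varied more among the WT libraries (1.36-fold) than among the KO libraries (1.08-fold). EGR1 RNA rose from 13.4 ± 2.11 to 19.6 ± 0.740 CPM, a fold of 1.46 (log2 fold change 0.55, SE 0.0952, adjusted p = 3.76e-05 in edgeR). The other EGR genes, EGR2, EGR3 and EGR4, were below 1 CPM in both groups.

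MAFF, a small MAF protein that binds DNA without an activation domain of its own and pairs with NRF2 and related factors, had 186, 173 and 177 reads in WT and 219, 233 and 231 in KO. Both groups were tight and did not overlap. The level rose from 10.5 ± 0.417 to 13.5 ± 0.431 CPM (edgeR log2 fold change 0.37 with SE 0.0914, adjusted p = 0.00213). TMEM184B overlaps MAFF in the annotation, at 87.9 ± 4.63 and 93.5 ± 3.38 CPM in WT and KO (log2 fold change 0.09, adjusted p = 0.230 in edgeR), so some of its reads could count for MAFF.

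MYC, the growth regulator that dimerises with MAX, was not called. It had 2244, 2461 and 2344 reads in WT and 2369, 2471 and 2527 in KO, and the ranges overlapped. The means were 138 ± 5.95 and 146 ± 4.51 CPM, and the log2 fold change was 0.08 (95% interval -0.03 to 0.19, adjusted p = 0.240 in edgeR). The interval leaves room for a rise of up to about 1.14-fold. The main RefSeq model, NM_002467, held 80.7% of the MYC reads in WT and 81.0% in KO.

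**Figure D3:**
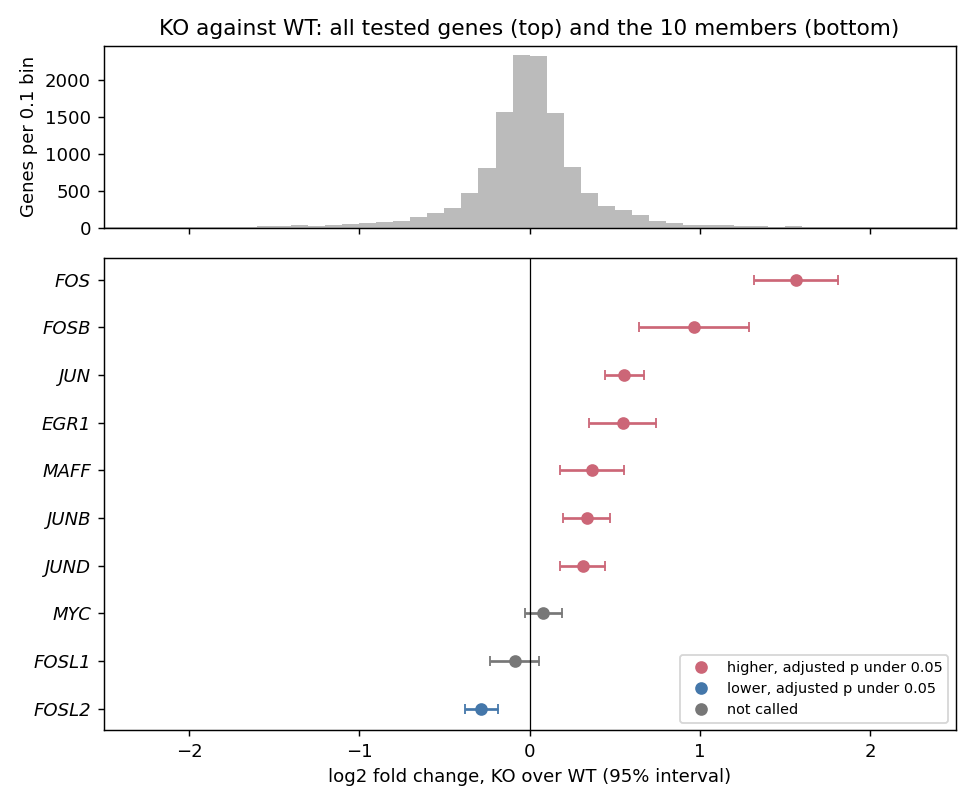
Log2 fold changes of KO over WT with 95% intervals for the 10 members (bottom) under a histogram of all tested genes in bins of 0.1 (top); 149 genes beyond 2.5 on either side are not drawn. FOS at 1.56 and FOSB at 0.96 stand furthest to the right, and FOSL2 at -0.28 is the one called member on the left.

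The members tended to be lowest or highest in the same libraries of a group. WT replicate 1 had the lowest CPM of the WT libraries for 8 of the 10 members, against 35.7% of all tested genes. KO replicate 3 had the highest CPM of the KO libraries for 9 members, against 37.3% of all tested genes. The calls of the members were the same with either library left out. KO replicate 1 had the lowest CPM of the KO libraries for all 10 members, a position not counted over all tested genes. CPM of FOS, FOSB, JUNB and EGR1 rose from replicate 1 to 2 to 3 in both groups, an order likewise not counted over all tested genes. In WT the other members did not follow this order. The part of handling or growth state in this spread was not tested.

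Per length, as the deposited TPM (transcript abundances scaled to length and library) allow, the members fell into a high and a low tier. In WT, FOSL2 at 110 ± 1.21 TPM and JUNB at 103 ± 10.3 TPM came first and their libraries overlapped. MYC (71.7 ± 4.37 TPM) and JUND (68.0 ± 6.61 TPM) also overlapped, followed by JUN at 53.25 ± 3.56 and FOSL1 at 43.9 ± 2.67 TPM, each apart from its neighbours. MAFF, EGR1 and FOS lay at 9.35 ± 0.338, 8.72 ± 1.24 and 7.04 ± 1.79 TPM with overlapping neighbours, and FOSB was lowest at 1.94 ± 0.330 TPM. In KO the order was JUNB, FOSL2, JUND, JUN, MYC, FOSL1, FOS, EGR1, MAFF and FOSB, and no neighbours overlapped. JUNB (127 ± 6.01 TPM) was then above FOSL2 (87.4 ± 1.19 TPM), JUN (76.5 ± 1.51 TPM) above MYC (74.1 ± 0.297 TPM), and FOS (20.4 ± 0.395 TPM) above EGR1 (12.45 ± 0.174 TPM) and MAFF (11.8 ± 0.222 TPM).

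The makeup of the FOS family RNA shifted from FOSL2 towards FOS. Of the family's summed TPM, FOS held 3.24%, 4.48% and 5.20% in WT and 13.2%, 13.4% and 13.6% in KO. FOSL2 held 69.5%, 66.4% and 66.7% in WT and 58.4%, 57.0% and 57.0% in KO. Neither set of shares overlapped between groups, and each differed with p = 0.1 in a two-sided exact permutation test, the smallest p that 3 libraries against 3 allow. FOSL1 held 27.0 ± 0.768% and 26.7 ± 0.448% (p = 0.7, exact permutation test). FOSB held 1.19 ± 0.168% in WT and 2.44 ± 0.418% in KO (p = 0.1, exact permutation test). FOSL2 transcripts outnumbered FOS transcripts by a ratio of 16.4 ± 4.51 in WT and 4.29 ± 0.118 in KO.

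The summed FOS family TPM was 163 ± 5.56 in WT and 152 ± 0.740 in KO (p = 0.1, exact permutation test). FOSL2, by far the most abundant of the family, lost more TPM than FOS and FOSB gained. The mean of FOSL1 was also lower, at 43.9 ± 2.67 TPM in WT and 40.6 ± 0.600 TPM in KO. The summed JUN family TPM was 224 ± 18.2 in WT and 286 ± 10.2 in KO (p = 0.1, exact permutation test), a ratio of 1.28. FOS family RNA per JUN family RNA was 0.756, 0.687 and 0.738 in WT and 0.548, 0.532 and 0.514 in KO. Within the JUN family, JUN held 23.8 ± 0.998% in WT and 26.7 ± 0.425% in KO (p = 0.1, exact permutation test), whereas the shares of JUNB and JUND overlapped between groups (p = 0.3 each, exact permutation test).

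**Figure D4:**
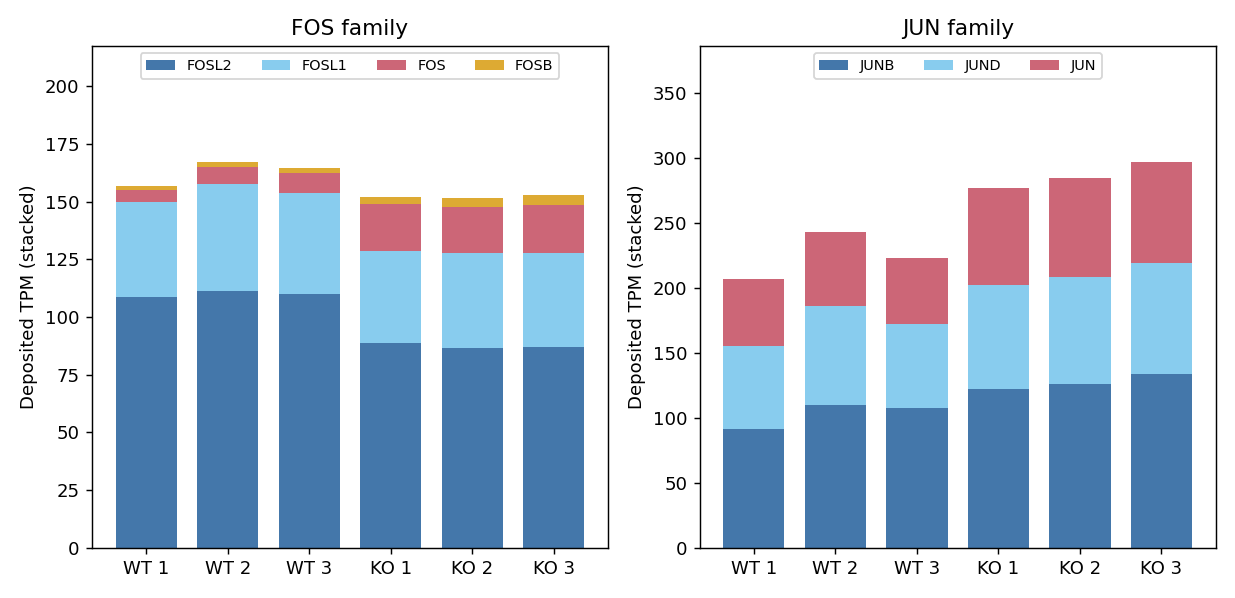
Deposited TPM of the FOS family (left) and JUN family (right) genes, stacked, in each library. The FOS segment grows from 5.07 to 8.56 TPM in WT to 20.1 to 20.9 TPM in KO while FOSL2 shrinks, and the JUN family total is higher in all 3 KO libraries.

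Tests of single RefSeq models called fewer of the members. FOS, JUN, JUNB and EGR1 had 1 listed model each, which held all of the gene's reads. NM_005253 held nearly all reads of FOSL2. For these genes the model test reused the gene's reads in a fit over all transcripts, so it is not separate evidence. The SE of FOS was 0.119 as a gene and 0.213 as a model. Of 22 models listed for the members, 19 were tested among 44030 transcripts, of which 1.14% were called higher and 0.990% lower. FOS NM_005252 (log2 fold change 1.55, adjusted p = 0.0306) and JUN NM_002228 (0.54, adjusted p = 0.0120) were called higher and FOSL2 NM_005253 (-0.28, adjusted p = 0.0108) lower in edgeR. With any 1 library left out, 0 or 1 models were called higher and 0 lower in edgeR, with none called at all without KO replicate 2, KO replicate 3 or WT replicate 3. At an unadjusted p under 0.05, 7 or 8 were higher and 1 lower in each of these fits. JUND had 2 models with exactly equal reads in every library, so its models were not separated.

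The lists of related genes that follow were described by counts, beside 18.7% called higher and 18.1% lower over all genes. Of 14 tested bZIP partners and relatives, 6 rose and 3 fell (median log2 fold change 0.15), with 2 or 3 called higher by limma on TPM. CREB5, a partner of JUN, fell from 114 ± 5.16 to 78.5 ± 4.44 CPM, while NFE2L1 rose by 0.47 and MAFG, another small MAF, by 0.24 on the log2 scale. ATF3, a stress-induced JUN partner named after its value was seen, rose from 10.1 ± 1.31 to 12.2 ± 1.29 CPM (adjusted p = 0.0437 in edgeR). Of 29 other immediate early genes, 9 rose and 8 fell (median 0.04). IER3 and TRIB1 rose by 1.06 and 0.77, whereas HES1, a Notch target, had a log2 fold change of -1.92. IER2, named after its value was seen, rose from 44.5 ± 5.30 to 65.7 ± 4.22 CPM. BTG2, HBEGF, SGK1 and GADD45B, also named after their values were seen, had log2 fold changes of -2.86, -1.01, -0.90 and -0.87.

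Of 34 kinases and nuclear factors upstream of FOS and JUN, 7 rose and 6 fell (median -0.04). MAPK13 and MAPK14, which encode p38 kinases, rose by 0.82 and 0.46, and ELK3, an SRF cofactor, by 0.40 on the log2 scale. SRF itself, the CArG box factor (also named after its value was seen), rose by 0.44. MAPK13, MAPK14, SRF and IER3 lie on chromosome 6, where the 24 nearest tested genes had medians of 0.45, 0.50, 0.62 and 0.60, so the neighbours of MAPK14 and SRF had medians above these genes' own values. Of 24 feedback and other response genes of the MAP kinase pathway, 10 rose and 3 fell (median 0.18). The 3 that fell were PHLDA1, PHLDA2 and CCND1 (the last 2 named after their values were seen). No DUSP, SPRY or SPRED gene of the list was called lower. EPHA2, on chromosome 1 with a neighbour median of 0.13, and ETV5 rose by 0.59 and 0.53, and PHLDA1 had a log2 fold change of -0.54. DUSP6, SPRY2 and SPRY4, which restrain ERK signalling, were among those that rose (0.47, 0.48 and 0.57; chosen after their values were seen).

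Of 26 known AP-1 targets tested, 9 rose and 9 fell (median 0.01). IL6 rose 5.00-fold and HMGA1, on chromosome 6 with a neighbour median of 0.55, by 0.87 on the log2 scale, whereas CCL2 had a log2 fold change of -2.80. The protease gene PLAU, a classical AP-1 target, fell from 157 ± 1.89 to 101 ± 3.64 CPM (chosen after its values were seen), while the collagenase genes MMP1, MMP10 and MMP13 were below 1 CPM in both groups. Of 20 genes of the MYC network, 7 rose and 3 fell (median 0.06), with 4 called higher without WT replicate 1 and 5 called lower with a replicate term. MAX, the obligate MYC partner, missed the threshold (log2 fold change 0.02, adjusted p = 0.856 in edgeR), and BIN1, MLXIP and ZBTB17 rose by 0.36, 0.25 and 0.29, with a neighbour median of 0.15 for ZBTB17 on chromosome 1. Of 40 MYC targets, mostly of ribosome production, 2 rose and 9 fell (median -0.07). HSPE1 and UTP20 had log2 fold changes of -0.32 and -0.21 and BYSL, on chromosome 6 with a neighbour median of 0.53, one of 0.42. The count of lowered MYC targets lay between 4 (without KO replicate 2) and 18 (with a replicate term) under other settings and was 5 without WT replicate 3, and 1 target was called higher without KO replicate 2.

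**Figure D5:**
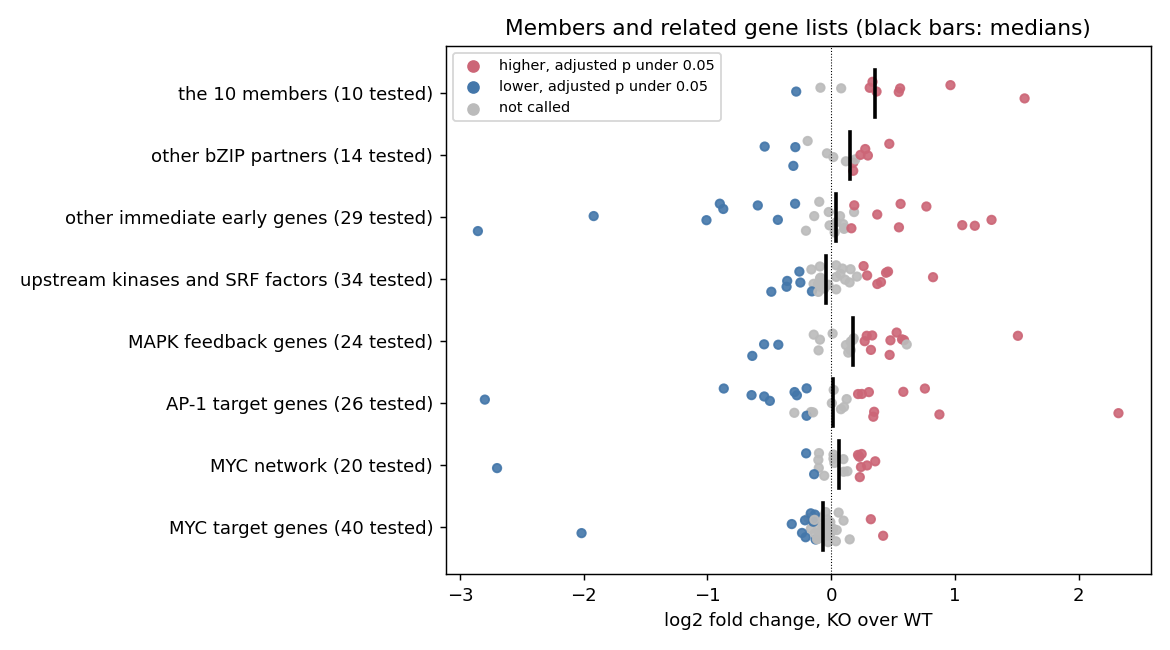
Log2 fold changes of KO over WT for every tested gene (points) of the 10 members and 7 related lists, with medians as black bars. The members' median is 0.35, and the medians of the related lists lie between -0.07 and 0.18.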

How the data were processed

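RNA-seq of HK-2 cells gave 3 WT and 3 KO libraries. The aligner HISAT2 (2.0.1) and Cuffdiff (2.2.1) are listed in the submitters' processing notes together with the trimmer cutadapt (1.9.1) and the build GRCh37. How reads were counted, with which strand setting, is not given in the sources used here. The authors deposited estimated counts, TPM and FPKM per gene and per transcript. Estimated counts were rounded to whole reads and tested with edgeR 4.0.16 (quasi-likelihood, TMM, filterByExpr with a minimum count of 10 and total of 15, robust) in R 4.3.3, over all 12702 genes or 44030 transcripts that passed, adjusted by Benjamini-Hochberg and called under 0.05. The procedure was tested on simulated data. CPM are TMM-scaled. Shares of a family were taken from the deposited TPM and compared with exact permutation tests. Alternatives used DESeq2 1.42.0, limma 3.58.1 on log2 of the deposited TPM or FPKM with a pseudocount, other scalings and filters, a replicate term, and each library left out. Promoters came from RefSeq (GRCh38.p14), and gene neighbours from RefSeq gene order, with 16063 of 16116 genes matched.

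The members and gene lists were chosen with earlier results of these data known. Named genes were the members, RETREG1, TAX1BP1 and, from each list, the called genes of smallest adjusted p, at most 3, whose higher group reached 5 CPM; others are said to be named after their values were seen. No pair of libraries within a group agreed within sampling noise.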

Additional observations from a re-analysis of the deposited data

How the results depend on the processing

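All 10 members kept their direction and their side of the threshold in all 18 alternatives. The log2 fold change ranged from 1.36 to 1.75 for FOS, 0.57 to 1.10 for FOSB, -0.33 to -0.26 for FOSL2 and 0.52 to 0.59 for JUN. These ranges mix scales, and the low ends for FOS and FOSB came from limma on log2(FPKM + 1). With 1 library left out in edgeR, the lowest values were 1.37 for FOS and 0.80 for FOSB. RETREG1 had no value under a filter of 5 CPM in 3 libraries. The share of FOS family TPM held by FOSL1, whose groups overlapped, was higher in KO by 0.58 points with reads in place of TPM and ranged from -0.63 to 0.12 points (KO minus WT) with 1 library left out, above 0 without WT replicate 2. Of the members' transcripts, DESeq2 called 4 higher, the replicate block in edgeR called 0 higher and 0 lower (7 and 1 at an unadjusted p under 0.05), and leaving out 1 library gave 0 to 1 higher and 0 lower. With 1 library left out, the log2 fold change of FOSB NM_006732 ranged from -0.0436 (without KO replicate 3) to 0.75, and that of MYC NM_001354870 from -0.0319 (without KO replicate 3) to 0.11, being below 0 also without WT replicate 2. MYC targets called lower numbered 14 with library size alone, 5 with TMM factors from outside chromosomes 1, 4 and 6, 18 under the replicate block, 5 without WT replicate 3 and 4 without KO replicate 2. Of bZIP partners, 2 or 3 were called higher by limma on TPM, and of MYC network genes 4 were called higher without WT replicate 1 and 5 lower under the replicate block. Without KO replicate 2, 1 MYC target was called higher. The cause of these moves was not tested.

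Same-numbered WT and KO libraries had deviations that correlated at 0.34, 0.02 and 0.29 over 10743 genes. WT replicate 1 with KO replicate 3 correlated at -0.33, and WT replicate 3 with KO replicate 1 at -0.30. The other crossed pairs lay between -0.08 and 0.07. Deviations were taken from the group means and cancel over the libraries of a group. The crossed correlations are therefore tied to the same-numbered ones and are not separate observations. Nothing in the labels pairs the libraries, so the main fit did not pair them. Whether same-numbered libraries share a batch was not tested. The replicate block changed no member gene's call. The low read numbers of FOSB limit what its models can show.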
